A study of Mus musculus with 153 samples.

Results

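The epidermal differentiation complex is a gene cluster on mouse chromosome 3 whose products build the outer, cornified layer of the skin. Its genes were taken from the deposited array table by name. A gene was a member when a probe set naming it alone carried a symbol starting with Lce, Sprr or S100a, or the symbol Flg, Flg2, Hrnr, Rptn, Ivl, Lor, Crnn or Tchhl1. The inflammation genes S100a8 and S100a9 were left out, and the probe set with the highest mean stood for each gene. This gave 47 of the 18810 genes tested, all 47 on chromosome 3. They comprised 15 Lce genes, 14 Sprr genes, 12 S100a genes, the 4 fused-type S100 genes Crnn, Flg2, Rptn and Tchhl1, and the 2 envelope genes Ivl and Lor. Flg and Hrnr shared 1 probe set that names both, so neither is a member.

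Keratinocytes that leave the basal layer of the epidermis first become spinous, then granular cells, and finally die as cornified cells. On the way, transglutaminases cross-link involucrin, loricrin, the small proline-rich (Sprr) proteins and the late cornified envelope (Lce) proteins into a protein shell under the cell membrane. Fused-type S100 proteins such as filaggrin bind keratin filaments or join the shell, and the smaller S100 proteins are calcium sensors. Several of these genes are also known from the hair follicle or from stressed and inflamed epidermis.

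The samples were tail skin of untreated mice, frozen at 8 weeks of age, with 1 Affymetrix array for each mouse. The mice came from a backcross: Mus spretus males were bred to FVB/N females without Hras, and the female F1 hybrids to FVB/N males that were Hras -/- or Hras -/+. HET mice, called Hras +/- in the series design, had 1 null copy of Hras (n = 37), and the other mice, labelled WT and Hras +/+, had none. The labels mark 2 arrays as outliers, and these were left out. The remaining mice were 81 males and 70 females, and the labels place their arrays on 3 plates with 49, 46 and 56 mice. The labels name no Cre or tissue limit for the null allele, and no litters. Each backcross mouse is genetically distinct, and the chromosome 3 it received from its F1 mother can hold both FVB/N and Mus spretus segments. Which segments each mouse inherited was not analysed here.

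Deposited values are log2 signals, in which a difference of 1 is a doubling. The signal of a probe set also depends on its probes, so values are compared between mice for each gene, and a rank among genes describes signal and not transcript number. Keratinocyte markers lay above the median gene (5.45): 9 of 11 granular and spinous keratinocyte markers were measured, with means between 9.26 and 12.2, and 8 of 8 basal keratinocyte markers, with means between 6.995 and 11.8. Skeletal muscle markers were lower, with means between 2.58 and 6.49 for 10 of 10 genes. All are whole-tissue values, in which fewer cells of a type and less RNA per cell cannot be told apart.

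Upstream sequences of 6 members are shown because these genes carry the patterns described below: Sprr2d differed by sex, Sprr2e varied most, Lor and Crnn lead groups of members that moved with different cell markers, and Lce1d and Lce1b varied together. Each is the 250 bases before the annotated start, 5′ to 3′, from RefSeq, build GRCm38.p6. The windows are chr3:92338890-92339139 on the plus strand for Sprr2d, chr3:92351893-92352142 on the plus strand for Sprr2e, chr3:92083143-92083392 on the minus strand for Lor, chr3:93144539-93144788 on the plus strand for Crnn, chr3:92687211-92687460 on the minus strand for Lce1d and chr3:92656927-92657176 on the minus strand for Lce1b. They are those of the assembly's reference strain, not of the FVB/N or Mus spretus copies in these mice. Capitals mark the letters TGANTCA, a loose form of the site bound by AP-1 factors, and TATAAA, the TATA box, on the gene's strand. N is any base, so the pattern TGANTCA covers both strands. The usual AP-1 site has C or G in the middle. Sprr2d, Sprr2e and Lor have G there, while the Crnn match, TGAATCA, has A and departs from the usual site. The motifs do not overlap each other in these windows.
Sprr2d: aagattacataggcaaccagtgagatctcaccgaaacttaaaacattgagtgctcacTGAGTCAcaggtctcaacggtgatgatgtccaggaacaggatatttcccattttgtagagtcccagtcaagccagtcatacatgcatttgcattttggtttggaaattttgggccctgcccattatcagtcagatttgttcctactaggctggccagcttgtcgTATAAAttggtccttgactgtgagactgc
Sprr2e: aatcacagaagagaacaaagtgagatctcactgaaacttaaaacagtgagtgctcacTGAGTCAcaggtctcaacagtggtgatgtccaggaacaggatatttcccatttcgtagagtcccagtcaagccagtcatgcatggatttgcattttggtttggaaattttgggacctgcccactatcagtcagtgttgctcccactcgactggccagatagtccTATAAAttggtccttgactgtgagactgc
Lor: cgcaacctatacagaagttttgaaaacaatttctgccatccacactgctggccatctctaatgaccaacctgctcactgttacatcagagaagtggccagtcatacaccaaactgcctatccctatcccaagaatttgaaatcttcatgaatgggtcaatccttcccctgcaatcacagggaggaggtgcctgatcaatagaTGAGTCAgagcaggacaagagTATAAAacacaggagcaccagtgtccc
Crnn: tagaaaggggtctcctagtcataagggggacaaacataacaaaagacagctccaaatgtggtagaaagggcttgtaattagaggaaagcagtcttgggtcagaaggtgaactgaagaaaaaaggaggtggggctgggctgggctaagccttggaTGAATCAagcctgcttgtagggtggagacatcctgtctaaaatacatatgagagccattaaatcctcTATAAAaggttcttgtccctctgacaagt
Lce1d: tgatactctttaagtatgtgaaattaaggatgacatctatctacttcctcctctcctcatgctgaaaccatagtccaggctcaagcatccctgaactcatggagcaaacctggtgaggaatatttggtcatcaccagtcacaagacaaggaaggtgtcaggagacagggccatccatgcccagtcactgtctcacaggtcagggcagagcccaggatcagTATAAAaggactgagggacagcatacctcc
Lce1b: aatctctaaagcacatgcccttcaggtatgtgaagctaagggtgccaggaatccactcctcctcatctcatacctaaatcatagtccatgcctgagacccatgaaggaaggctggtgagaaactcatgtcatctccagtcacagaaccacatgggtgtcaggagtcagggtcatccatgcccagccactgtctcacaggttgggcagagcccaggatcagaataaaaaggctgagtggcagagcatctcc

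Of the 47 members, 41 had an entry in the promoter table, with 45 windows between them. AP-1 letters, counted with any base in the middle, stood in 17 of the 45 member windows (37.8%), against 6.75% of all 32841 windows of that length. TATAAA also stood in 17 of 45 (37.8%), against 7.59% of all windows. The families differed in which windows held them. AP-1 letters stood in 7 of 8 Sprr2 windows, 2 of 4 other Sprr windows and 4 of 4 fused-type S100 windows. They also stood in both the Ivl and the Lor window, in 2 of 13 S100a windows and in 0 of 14 Lce windows. TATAAA stood in 7 of 8 Sprr2 windows, 3 of 4 other Sprr windows and 2 of 4 fused-type S100 windows. It also stood in both the Ivl and the Lor window, in 2 of 13 S100a windows and in 1 of 14 Lce windows. In Sprr2d, Sprr2e and Sprr2i the AP-1 letters began 193 bases before the start, and the TATA box began 29 bases before it. Many Sprr2 windows are near copies of each other, so they are not independent examples: the Sprr2d and Sprr2e windows were identical at 220 of 250 positions. Letters of other factors known in skin differed less from the share of all windows. TTGCNNAA (C/EBP, both strands) stood in 6.67% of member windows against 9.57% of all, CCACCC (Klf, both strands) in 33.3% against 28.1%, and CAGGAAG (Ets, both strands) in 13.3% against 10.8%. A match describes the letters and does not show that a factor bound there.

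Most members had signals above the middle of the array in tail skin. The signals of 34 of 47 members exceeded the median gene (5.45), 28 exceeded the upper quartile (7.20), 16 exceeded 10, and 8 lay under the lower quartile (3.43). Lce1d and Lce1h, late envelope genes, had the highest means, 12.49 and 12.42. They were followed by Lor at 11.30, Sprr2b at 11.18 and Lce1b at 11.11. The lowest means were those of Lce3b (2.21), Sprr2f (2.46), Sprr2k (2.58), Sprr3 (2.68) and S100a5 (2.97). At such low signals an array can compress differences, although the spread of some of these genes was wide, as given below.

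**Figure D1:**
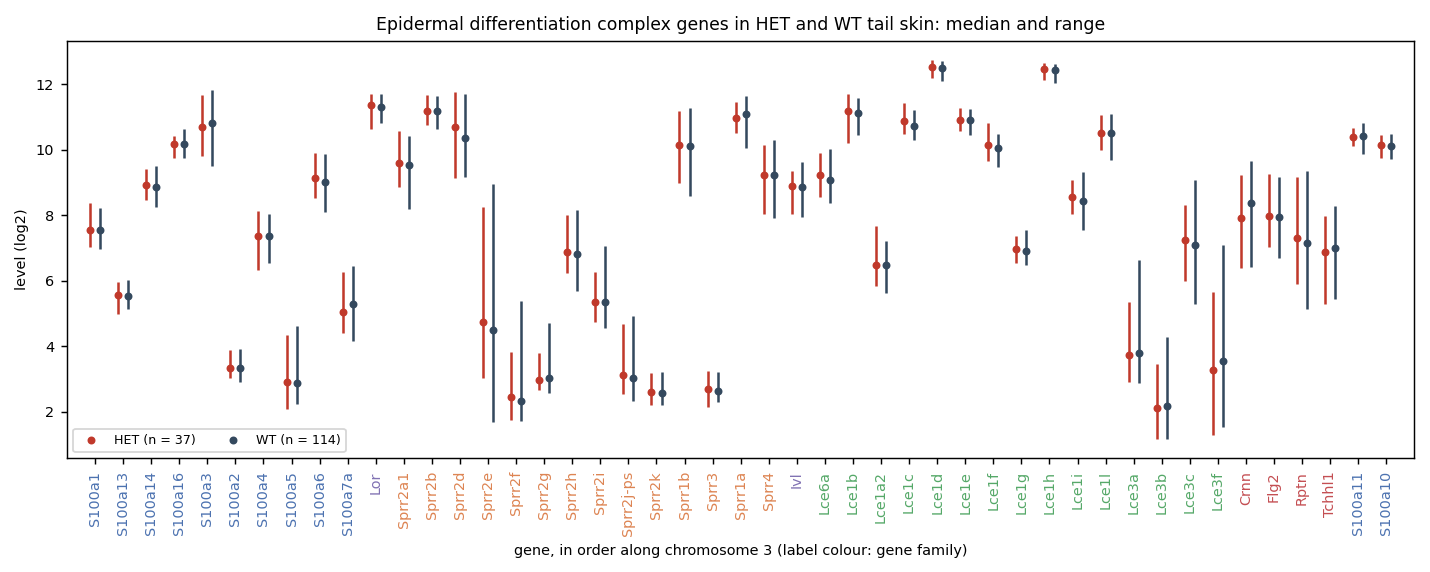
Signal (log2) of each of the 47 genes, in their order along chromosome 3, in HET mice (red, n = 37) and WT mice (dark blue). Points are medians and lines run from the lowest to the highest mouse. HET and WT ranges overlapped for every gene, and Sprr2e and Lce3f have the longest lines.

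Loricrin, the main protein of the murine cornified envelope, varied little between mice. Lor had a lowest, median and highest signal of 10.62, 11.36 and 11.69 in HET mice and of 10.81, 11.30 and 11.69 in WT mice. Involucrin, the early scaffold of the envelope, had 8.05, 8.88 and 9.34 in HET mice and 7.96, 8.85 and 9.63 in WT mice (Ivl). Neither gene separated the genotypes.

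Among the fused-type S100 genes, Flg2 encodes a filaggrin relative of the granular layer. Its lowest, median and highest signals were 7.04, 7.97 and 9.26 in HET mice and 6.69, 7.96 and 9.16 in WT mice. Rptn, which encodes repetin, had 5.89, 7.30 and 9.15 in HET mice and 5.14, 7.15 and 9.36 in WT mice. Crnn, the cornulin gene, had 6.39, 7.90 and 9.23 in HET mice and 6.40, 8.37 and 9.64 in WT mice. The trichohyalin relative Tchhl1 had 5.29, 6.88 and 7.99 in HET mice and 5.45, 6.999 and 8.27 in WT mice. Each of these genes thus spanned between 2.57 and 4.22 log2 units over the mice, and HET and WT mice overlapped over most of that span. The shared probe set of Flg and Hrnr, which belongs to no single gene, averaged 12.11 ± 0.12 in the 37 HET mice (SD) and 12.08 ± 0.11 in the WT mice (SD).

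Small proline-rich proteins act as bridges between other envelope proteins. Means of the 14 Sprr genes ran from 2.46 (Sprr2f) to 11.18 (Sprr2b), with 4 above 10 (Sprr2b, Sprr1a, Sprr2d, Sprr1b) and 5 under the lower quartile (Sprr2f, Sprr2g, Sprr2j-ps, Sprr2k, Sprr3). A probe set shared by Sprr2a1, Sprr2a2 and Sprr2a3 averaged 11.33 and is outside these counts. Sprr1a had a lowest, median and highest signal of 10.51, 10.98 and 11.44 in HET mice and of 10.05, 11.08 and 11.63 in WT mice. Sprr1b had 8.97, 10.15 and 11.19 in HET mice and 8.60, 10.10 and 11.26 in WT mice. In both genes the HET mice lay inside the WT range. Sprr2d had 9.14, 10.70 and 11.75 in HET mice and 9.18, 10.34 and 11.71 in WT mice, again with overlapping groups.

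Late cornified envelope proteins are added to the shell near the end of differentiation. Of the 15 Lce genes 7 had means above 10, all of the Lce1 group (Lce1b, Lce1c, Lce1d, Lce1e, Lce1f, Lce1h, Lce1l). By probe sets naming 1 gene alone the Lce3 group was uneven, with means of 3.89 for Lce3a, 2.21 for Lce3b, 7.17 for Lce3c and 3.52 for Lce3f. A probe set shared by Lce3b, Lce3c and Lce3f averaged 8.00 ± 0.37 in HET mice (SD) and 8.04 ± 0.54 in WT mice (SD). Another, shared by Lce1a1 and Lce1a2, averaged 10.30, against 6.51 for the probe set naming Lce1a2 alone. Shared probe sets are outside the counts of members. Lce1d had a lowest, median and highest signal of 12.18, 12.52 and 12.75 in HET mice and of 12.09, 12.49 and 12.70 in WT mice. These groups overlapped as well.

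Of the 12 S100a genes 4 had means above 10: S100a3 (10.78), S100a11 (10.41), S100a16 (10.18) and S100a10 (10.12). S100a3 had a lowest, median and highest signal of 9.81, 10.69 and 11.67 in HET mice and of 9.51, 10.81 and 11.81 in WT mice. S100a10, the partner of annexin A2, had 9.74, 10.13 and 10.45 in HET mice and 9.73, 10.13 and 10.48 in WT mice. S100a10 was thus far narrower than S100a3 over the same mice, and neither separated the genotypes. S100a7a had 4.39, 5.05 and 6.26 in HET mice and 4.15, 5.28 and 6.44 in WT mice. S100a2 and S100a5 lay under the lower quartile of all genes.

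Spread between mice differed widely along the cluster. After genotype, sex and plate were removed, the SD had a median of 0.32 over the members and 0.22 over all genes tested. Of the 47 members, 21 (44.7%) had an SD above 0.35, the 90th percentile of all genes. This held for 9 of 14 Sprr genes, 4 of 15 Lce genes, 4 of 12 S100a genes, 4 of 4 fused-type S100 genes and neither Ivl nor Lor. Some of these genes had signals near the background. Of the 5 members with the lowest means, Lce3b (SD 0.57), Sprr2f (0.52) and S100a5 (0.47) lay above that percentile. Sprr2k (0.18) and Sprr3 (0.21) did not. The part of measurement noise in these spreads was not tested. Sprr2e, a small proline-rich gene, had the largest SD, 1.20, followed by Lce3f (1.18), Rptn (0.86), Crnn (0.72) and Lce3c (0.69). The signal of Sprr2e ran from 3.02 through a median of 4.75 to 8.26 in HET mice and from 1.67 through 4.49 to 8.96 in WT mice. The smallest SDs were those of Lce1h (0.11), Lce1d (0.13), S100a10 (0.13), S100a16 (0.15) and S100a11 (0.15). Lce1d and Lce1h lie near the top of the array's scale, where values can be compressed.

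The genotype comparison asked whether loss of 1 Hras copy is accompanied by other levels of these genes in untreated skin. By the cross every WT mouse inherited its maternal Hras copy from Mus spretus, whereas a HET mouse could inherit either maternal copy. Hras dose and the Mus spretus segment around Hras were therefore not separated here. No member was called (limma, Benjamini-Hochberg adjusted p over 18810 genes under 0.05), where 0.112% of all genes were called. At an unadjusted p under 0.05 there were 3 members, against 6.57% of all genes. HET minus WT differences ran from -0.45 to 0.16 with a median of 0.01 over the members, and 39 of 47 lay within 0.1 of 0. They were positive for 30 of 47 members: 12 of 15 Lce genes, 8 of 14 Sprr genes, 7 of 12 S100a genes, 1 of 4 fused-type genes, Ivl and Lor. On plates 1, 2 and 3 alone 22, 20 and 30 members were positive, and in males and females alone 22 and 28. The share of all genes with a positive difference was not counted. Genes of a family varied together, so these counts do not show a shift of a family. The 95% intervals lay within 0.2 of 0 for 27 members, and over the other 20 they reached as far as -0.896 and 0.491.

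The 5 members with the smallest p-values, none of them called, were Lce1c, Lce1f, Lce3f, Crnn and Lce6a. Lce3f, of the Lce3 group that is known in human skin for induction after injury, had a lowest, median and highest signal of 1.29, 3.27 and 5.66 in HET mice and of 1.54, 3.53 and 7.10 in WT mice. The difference was -0.45 ± 0.22 (SE, limma adjusted p = 0.75), and the genotypes overlapped over most of the range. On plates 1, 2 and 3 alone it was 0.04, -1.17 and -0.29, none of them called, so its sign turned on plate 1 and its size was largest on plate 2. Lce1c, another late envelope gene, had 10.47, 10.87 and 11.41 in HET mice and 10.31, 10.74 and 11.21 in WT mice. The difference for Lce1c was 0.10 ± 0.04 (SE, limma adjusted p = 0.59) and by plate it was -0.03, 0.21 and 0.11, none of them called. Lce1f differed by 0.09 ± 0.04 (SE) and Lce6a by 0.10 ± 0.06 (SE), with limma adjusted p-values of 0.74 and 0.82. By plate Lce1f differed by 0.10, 0.02 and 0.13 and Lce6a by -0.07, 0.18 and 0.17, none of them called.

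Crnn differed by -0.25 ± 0.14 (SE, limma adjusted p = 0.79) between HET and WT mice. Markers of the hair shaft and inner root sheath moved with it: 0 of 18 measured markers were called in this comparison, and the differences were positive for 0 of 18, with a median of -0.25. Their mean level had a lowest, median and highest value of 7.55, 8.71 and 10.1 in HET mice and of 7.20, 9.08 and 10.4 in WT mice, and the marker with the lowest signal averaged 6.17. Krt81 and Krt85 of that list were not measured. With scores of hair shaft, muscle, fibroblast and adipocyte markers as covariates, the Crnn difference was 0.003 ± 0.05 (SE). Crnn had an r of 0.93 with the hair list, so that score removes most of its variation, whatever the source. The part of hair follicle content in the Crnn difference was not tested.

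In the sex comparison limma called 2 members of 47, where 3.62% of all 18810 genes were called, so the members' share is near that of the array. One was higher in males, where 1.1% of genes were called higher, and the other was lower, where 2.51% were called lower. At an unadjusted p under 0.05 there were 10 members, against 16.4% of all genes. Calls over the whole array split into 207 genes up and 473 down in males, or 348 up and 271 down with each array's median subtracted.

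Sprr2d, a small proline-rich gene of the cornified envelope whose upstream sequence is printed above, was higher in males. Its lowest, median and highest signals were 9.46, 10.59 and 11.71 in males and 9.14, 10.07 and 11.75 in females. Most of the ranges overlapped, and the highest mouse of all was a female. The difference was 0.44 ± 0.09 (SE), 1.36-fold higher, with a limma adjusted p of 0.0002. It was 0.42, 0.53 and 0.38 on plates 1, 2 and 3, none of them called when a plate was fitted alone. Among WT mice it was 0.47 (limma adjusted p = 0.0003) and among HET mice 0.36 (adjusted p = 0.85).

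Stress keratinocyte markers moved with Sprr2d. Their mean level had a lowest, median and highest value of 5.83, 7.05 and 10.2 in males and of 5.86, 6.78 and 9.03 in females, and the male minus female difference was positive for 6 of 8 measured markers. Of these 8, 3 (37.5%, against 1.1% of all genes) were called higher in males: Stfa3, a cysteine protease inhibitor (0.86 ± 0.16, SE), the antimicrobial lipocalin Lcn2 (0.49 ± 0.13, SE) and S100a8 (0.94 ± 0.29, SE). Calls by sex were not particular to this list. Of 7 dermal fibroblast markers 3 were called higher and 1 lower, and of 8 sebaceous gland markers 2 higher and 1 lower. Basal keratinocyte markers had 2 of 8 called higher, and granular and spinous markers 2 of 9, with 0 lower in each. S100a8 is the calprotectin subunit gene that lies in the same cluster, and it averaged 5.57 in males and 4.66 in females. The part of stressed keratinocytes in the sex difference of Sprr2d was not tested.

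Lce1h was lower in males by a small amount. Its lowest, median and highest signals were 12.03, 12.43 and 12.65 in males and 12.18, 12.46 and 12.63 in females, and the ranges overlapped almost fully. The difference was -0.06 ± 0.02 (SE), 1.05-fold lower, with a limma adjusted p of 0.034. By plate it was -0.06, -0.11 and -0.03. With each array's median subtracted it was -0.05 and no longer called (adjusted p = 0.22), nor was it in WT mice alone (-0.07, adjusted p = 0.075).

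**Figure D2:**
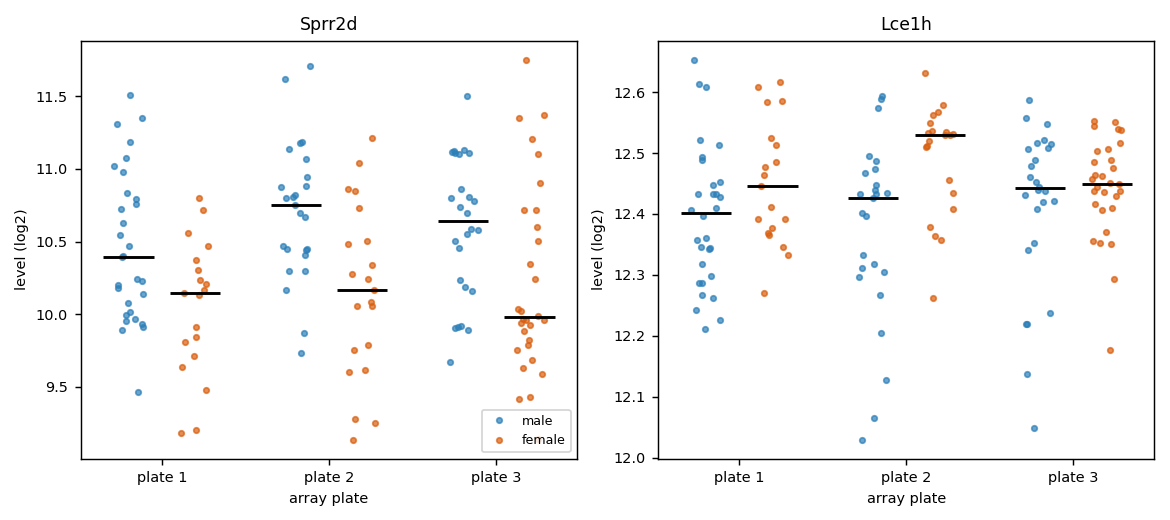
Signal (log2) of Sprr2d and Lce1h in each mouse, by array plate, with males (blue) left of females (orange) and black lines at the medians. Sprr2d had a higher median in males on plates 1 (10.40 against 10.15), 2 (10.75 against 10.17) and 3 (10.64 against 9.98), while the points of both sexes overlapped, and the Lce1h scale spans under 1 log2 unit.

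The next members by p-value did not pass. Sprr2f differed by 0.25 ± 0.09 (SE) between males and females, Tchhl1 by -0.27 ± 0.11 and Crnn by -0.29 ± 0.12, with limma adjusted p-values of 0.087, 0.15 and 0.16. Differences of the hair shaft markers were negative for 18 of 18 measured genes, and 2 (11.1%, against 2.51% of all genes) were called lower in males. These were the inner root sheath keratin gene Krt25 and Foxn1, a regulator of hair shaft formation. With the hair shaft, muscle, fibroblast and adipocyte scores as covariates the male minus female difference of Tchhl1 was -0.07 and that of Crnn -0.02. Tchhl1 and Crnn had an r of 0.70 and 0.93 with the hair list, so this fit cannot show where their differences came from. In the same fit the male minus female difference of Sprr2d was 0.37 (limma adjusted p = 0.002), but the stress keratinocyte score was not among these covariates.

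**Figure D3:**
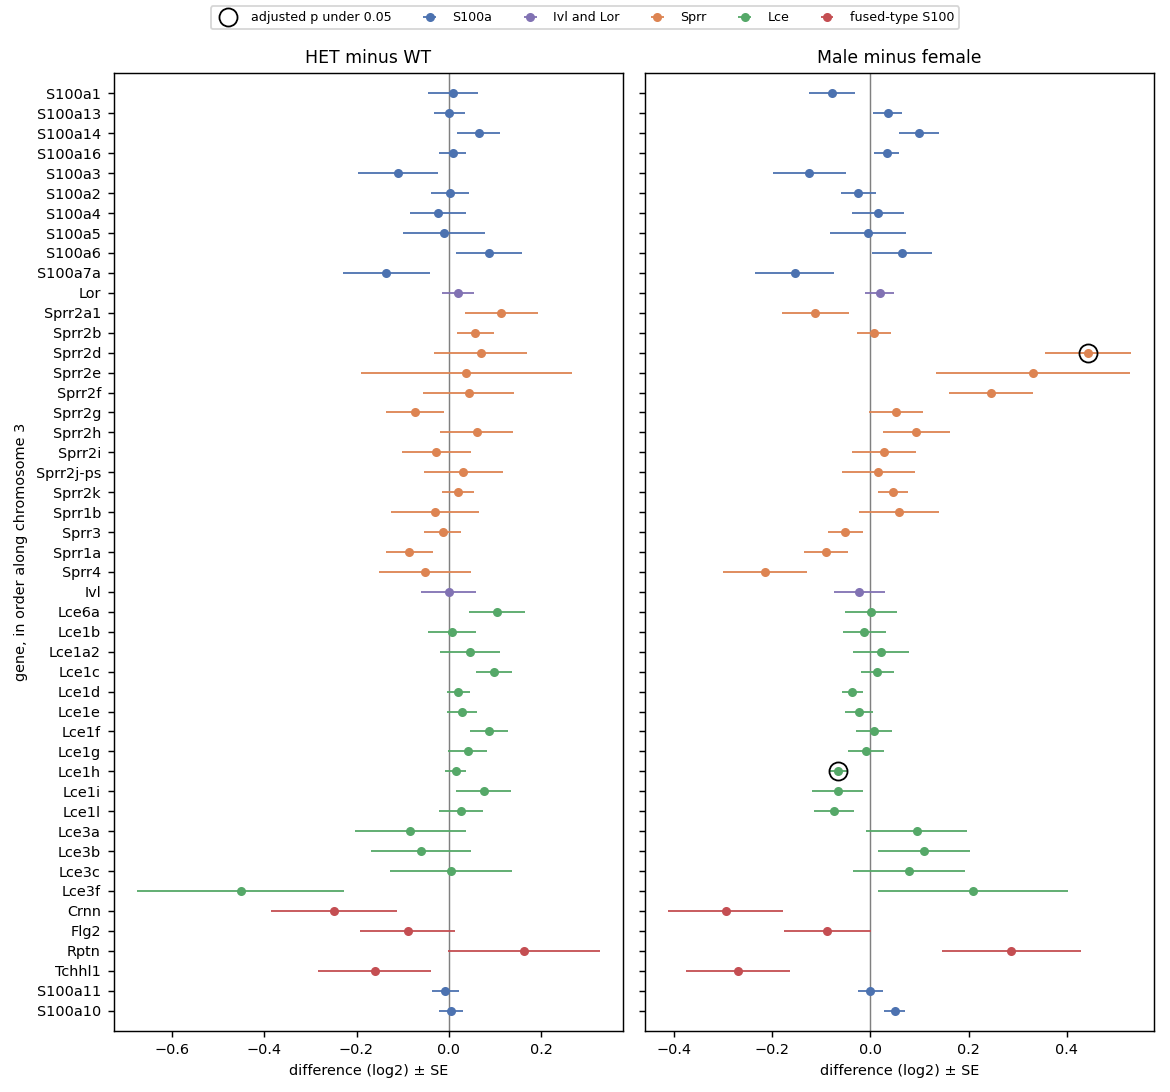
HET minus WT (left) and male minus female (right) differences of the 47 genes in log2 units, with bars of 1 SE, coloured by family. Circles mark the 2 genes with an adjusted p under 0.05, Sprr2d and Lce1h in the sex comparison, and no gene is circled in the genotype comparison.

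Plate and the combination of genotype and sex gave no called member. Between the 3 plates no member was called, nor had any an unadjusted p under 0.05, where 0.0213% of genes were called and 0.808% had such a p (limma moderated F). That share of genes is far under the fraction of 0.05 that would have such a p if plates did not differ. The lack of calls is therefore a trait of the whole array and not a result about the members. Whether plate differences had been removed before deposit was not tested. The smallest unadjusted p of a member was 0.22, that of Sprr2d, which averaged 10.31, 10.46 and 10.40 on plates 1, 2 and 3. No member and no other gene (0%) was called for the genotype by sex interaction by limma. There were 2 members at an unadjusted p under 0.05, against 4.76% of all genes. These were the calcium sensor genes S100a16 (-0.15 ± 0.06, SE) and S100a14 (-0.21 ± 0.09, SE), both with a limma adjusted p of 0.998.

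Other genes of the same pathway were read from lists. Of 34 listed cornified envelope and barrier genes outside the cluster 32 were measured: 0 were called by genotype, and 2 were called higher and 0 lower in males (6.25%, against 3.62% of all genes called in either direction). These were Tgm3, an epidermal transglutaminase that cross-links envelope proteins (0.22 ± 0.05, SE), and Krt1, the type II keratin of spinous cells (0.11 ± 0.03, SE). Of 18 other genes in or beside the cluster 12 were measured, with 0 called by genotype and 1 higher in males, S100a8 (8.33%). Of 28 transcription factors of epidermal differentiation 26 were measured, with 0 called by genotype and 1 lower in males, Gata3 (-0.14 ± 0.03, SE), or 3.85%. With 1 or 2 calls a list, these shares rest on single genes. None of the listed genes was called between plates or for the interaction. These lists were chosen with earlier results of these data known.

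Variation between mice divided the cluster into groups of genes. Correlations are Pearson's r over all mice of both genotypes on residuals after genotype, sex and plate, given as a description without a p. Paired genes share arrays, tissue pieces and, within a family, similar probes. Over the 1081 member pairs the median r was 0.06, against -0.001 for pairs of a member and another gene. An r of at least 0.5 was found for 84 pairs (7.77%), against 0.337% of member pairs with other genes. An r of -0.3 or lower was found for 47 pairs (4.35%), against 1.85%. The cluster held both closely parallel and opposed genes beside many pairs near 0.

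The closest pair was Crnn and Tchhl1, with an r of 0.85 (Spearman's rho 0.82, and 0.84 without the 2 farthest mice). Lce1b, Lce1d and Lce1l formed a close trio, with r values of 0.83 for Lce1b and Lce1d, 0.83 for Lce1d and Lce1l and 0.81 for Lce1b and Lce1l. Of these, Lce1b and Lce1d have the upstream windows without AP-1 letters printed above. Crnn also paired with the S100 genes S100a7a (0.80) and S100a3 (0.79), Sprr1b with Rptn (0.79), and Lce1g with Lce1i (0.75). Within single plates these 8 values lay between 0.66 and 0.90.

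Of the 47 pairs with an r of -0.3 or lower, 30 joined an S100a gene with a gene of another family, 4 joined S100a genes with each other and 13 held no S100a gene. Among all 1081 pairs, S100a genes were joined with Lce genes in 180, Sprr genes in 168, fused-type genes in 48 and Ivl or Lor in 24. They were joined with each other in 66. The 5 most opposed are given here. S100a6, which encodes calcyclin, had an r of -0.61 with Lce1d and of -0.57 with Lce1l. S100a1 had -0.53 with Lor, and S100a7a, a relative of human psoriasin, had -0.52 with Lce1d. The fifth pair was that of the fused-type genes Flg2 and Rptn, at -0.48. On plates 1, 2 and 3 that pair gave -0.21, -0.67 and -0.55.

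Within families the agreement was uneven. The 45 pairs of 10 Lce1 genes had a median r of 0.47, from 0.12 to 0.83, and the 45 pairs of 10 Sprr2 genes a median of 0.47, from 0.26 to 0.74. All 45 were positive in each case. The 6 pairs of 4 Lce3 genes had a median of 0.23. The 66 pairs of S100a genes had a median of 0.04, from -0.39 to 0.67, the highest being S100a14 with its neighbour S100a16. Members of the Sprr2, Lce1 and Lce3 groups are near copies whose probes may take signal from each other, so the values of single copies are uncertain. The early and late envelope genes Ivl and Lor had an r of 0.30, with 0.22, 0.15 and 0.52 on plates 1, 2 and 3. Sprr3, whose signal was low, had no r above 0.14 with any other member.

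Neighbours in the cluster were more alike than distant genes, and this lay largely within families. Adjacent members had a median r of 0.26 (46 pairs), those 2 to 3 places apart 0.22, those 4 to 8 apart 0.09, those 9 to 16 apart 0.04 and those 17 to 46 apart 0.04. Between members of different families 1 to 3 places apart the median was 0.02 (29 pairs).

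**Figure D4:**
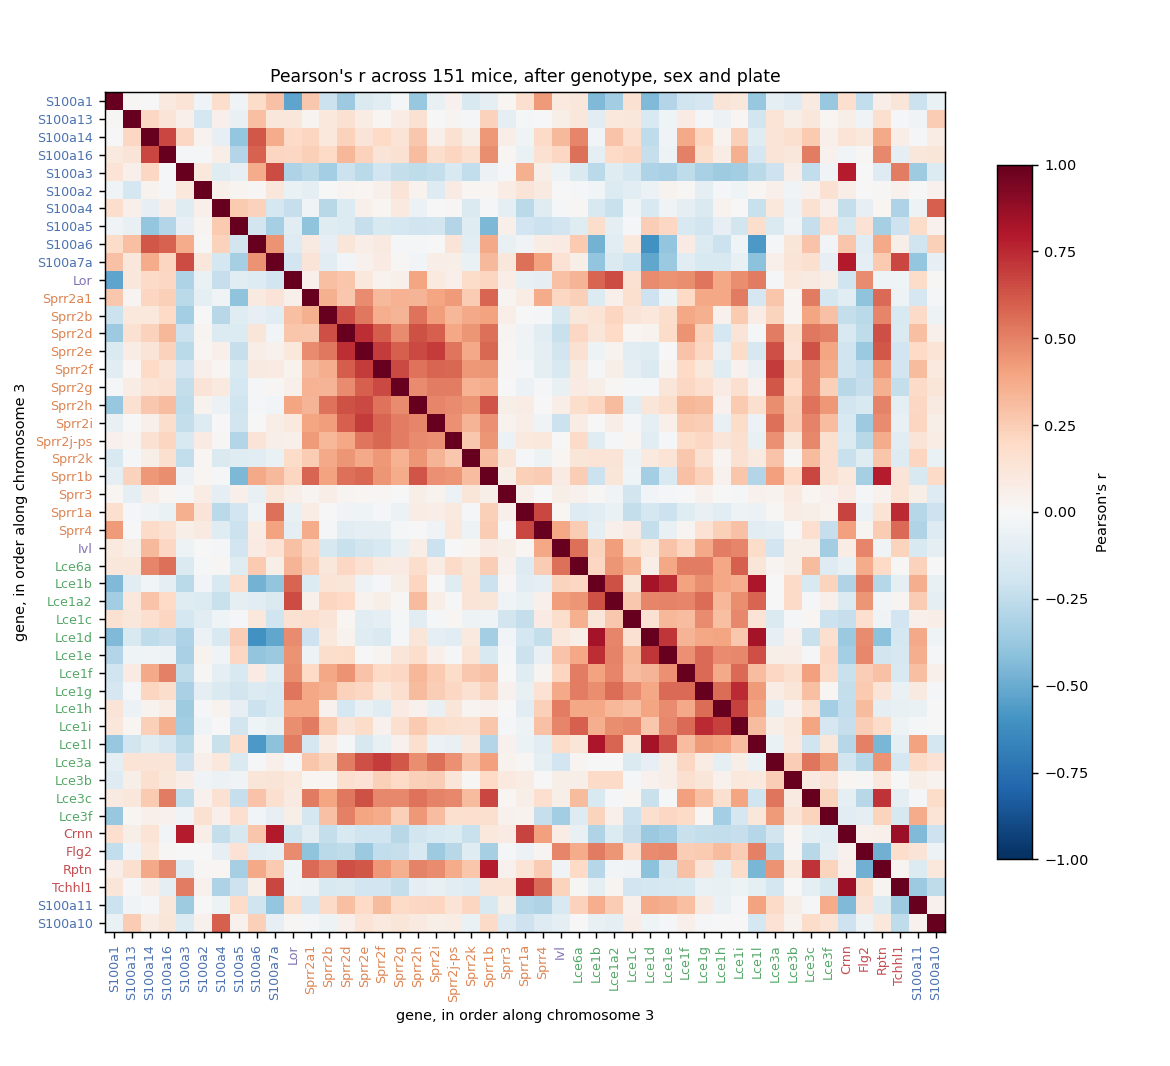
Pearson's r between all 47 genes over all mice, after genotype, sex and plate, in order along chromosome 3 (red positive, blue negative, diagonal 1). The Sprr2 block and the Lce1 block are red along the diagonal, Rptn, Sprr1b and Lce3c are red with the Sprr2 block, and Crnn and Tchhl1 are red with S100a3, S100a7a and Sprr1a.

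The groups followed different cell markers. Scores of 12 marker lists were the mean standardised residual of each list's measured genes, and an r of at least 0.5 was counted. The share of all genes reaching 0.5 was not counted for these lists, so the counts do not set members apart from other genes. Granular and spinous keratinocyte markers reached 0.5 with 9 members, namely Lor, Sprr2h, Lce6a and 6 Lce1 genes (Lce1b, Lce1a2, Lce1e, Lce1f, Lce1g, Lce1i), with the highest values for Lor (0.75) and Lce1g (0.71). Lor also had an r of 0.72 with Ppl, the gene of the envelope protein periplakin. Lce1h had an r of 0.75 with Kprp, a keratinocyte proline-rich protein gene of the same cluster.

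Stress keratinocyte markers, among them Krt6a, Krt16 and S100a8, reached 0.5 with 10 members: Sprr2d, Sprr2e, Sprr2f, Sprr2g, Sprr2h, Sprr2i, Sprr1b, Lce3a, Lce3c and Rptn. Sprr2e had the highest value, 0.75, and Sprr2d had 0.72. Sprr2e had an r of 0.82 with the antimicrobial defensin gene Defb3 and of 0.81 with S100a8. Rptn had an r of 0.72 with Krt16, a keratin of injured epidermis. Neutrophil markers, a list that shares S100a8 and S100a9 with the stress list, reached 0.5 with Sprr2d, Sprr2e, Sprr2f and Sprr2i. Flg2 ran the other way, with -0.39 against the stress markers.

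Hair shaft and inner root sheath markers reached 0.5 with 5 members: Crnn (0.93), S100a3 (0.90), S100a7a (0.76), Tchhl1 (0.70) and Sprr1a (0.59). Crnn had an r of 0.95 with Krt27, an inner root sheath keratin, and of 0.94 with Tchh, the trichohyalin gene of the same cluster. S100a3, known from the hair cuticle, had an r of 0.93 with the hair keratin Krt35. Of the Lce1 genes, Lce1d had -0.42 and Lce1e -0.40 with the hair list. Sprr1a paired with Tchhl1 at 0.75 and with its close relative Sprr1b at 0.24.

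S100a4, known from fibroblasts and macrophages, was the member that followed dermal markers. Its r was 0.66 with the dermal fibroblast list and 0.56 with the macrophage and dendritic cell list, and 0.74 with the mesenchymal filament gene Vim. No member reached 0.5 with the basal keratinocyte, sebaceous gland, skeletal muscle, adipocyte, melanocyte or Schwann cell lists. Whether the number of these cells or their expression differed between mice was not tested.

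**Figure D5:**
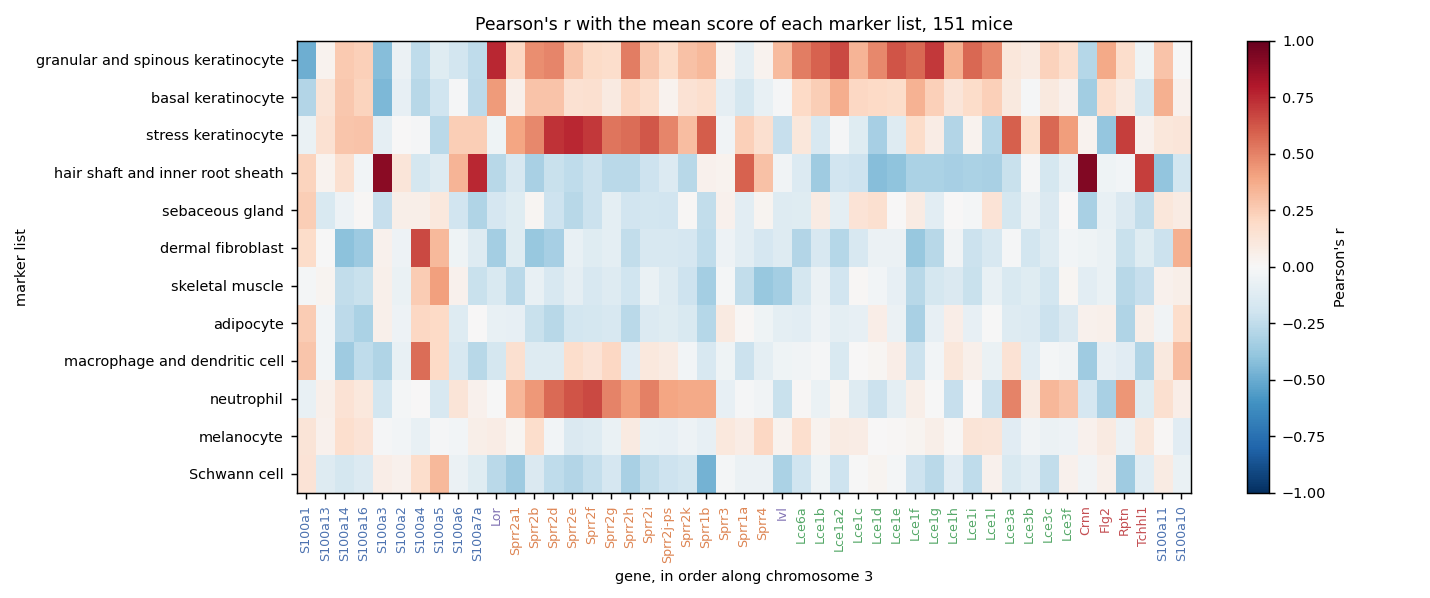
Pearson's r over all mice between each of the 47 genes (columns, in order along chromosome 3) and the score of each of 12 marker lists (rows), red positive and blue negative. Lor and Lce1 genes are red in the granular row, Sprr2 genes, Rptn and Lce3c in the stress row, and S100a3, S100a7a, Crnn and Tchhl1 in the hair row.

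A mean over the members hides these groups. It correlated positively with 42 of 47 genes, but each gene is part of that mean, which by itself favours a positive value. The non-members closest to the mean standardised residual of the 47 genes were Il1f9, an epithelial cytokine of the interleukin-1 family (0.67), the desmosome gene Pkp3 (0.65), the kallikrein protease gene Klk9 (0.64), the skin calmodulin relative Calm4 (0.63), Sdcbp2 (0.63) and Cysrt1 (0.62). The most opposed were the ubiquitin ligase gene Nedd4 (-0.63), Ebf3 (-0.53), Plcb4 (-0.53), Plpp3 (-0.53), the spectrin gene Sptbn1 (-0.51) and Ebf2 (-0.50).

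Genes elsewhere on chromosome 3 were frequent among the closest genes of some members. For each member the 20 non-members with the largest absolute r were taken. Of these 940 places 80 (8.51%) went to chromosome 3 genes outside the cluster, which are 4.41% of all non-members, and 27 went to non-members inside the cluster. Of the 80 places 48 fell to 6 members with at least 5 each: Lce3f (11 of 20), S100a1 (10), S100a6 (7), S100a11 (7), Sprr2a1 (7) and S100a5 (6). Over the other 41 members the share was 3.90%. Lce3f had an r of -0.52 with Fmo5, a flavin monooxygenase gene, and S100a1 had -0.59 with Gpatch4, both on chromosome 3. In contrast, 33 members had 0 or 1 such gene, among them Crnn, S100a3 and S100a4. The median absolute r was 0.156 with the 11 measured non-members inside the cluster, 0.113 with genes 1 to 50 places outside it and 0.087 with genes of other chromosomes. The part of inherited chromosome 3 segments in these values was not tested.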

How the data were processed

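The values are log2 signals per probe set, made by the authors with RMA (background correction, normalization between arrays, probe summary), per the submitters' processing notes. No source used here gives the RMA version or the array's build. From 153 arrays, 151 mice were used (37 HET, 114 WT). Probe sets with 1 gene symbol gave 18810 genes, ordered by a RefSeq table of GRCm38.p6. All genes were fitted in R 4.3.3 with limma 3.58.1 (terms genotype, sex and plate, moderated with a trend) and adjusted by Benjamini-Hochberg. Correlations used Python 3.11.15. Mice are the replicates, and their number limits the precision.

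On simulated arrays of 18810 genes the genotype comparison recovered 77 and 98 of 100 genes with changes of 0.2 and 0.4 (log2), the sex comparison 87 and 100, the plate comparison 74 and 95, and the genotype by sex interaction 16 and 73. In each, 200 changed genes were drawn from the whole array, with independent normal noise at each gene's own SD. The members' median SD was larger (0.32 against 0.22 over all genes), so these rates are not those of the members. Members and lists were chosen with earlier results of these data known. Named with values are Lor, Ivl, the fused-type genes, called genes or the 5 smallest p-values, the 5 extremes of mean and SD, the 8 most positive and 5 most negative pairs, the 6 genes most and least like the members' mean, and up to 3 called genes of a list. Other genes were named after their values were seen. Hras itself is not reported here, and the genotype labels were not checked against it.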

Additional observations from a re-analysis of the deposited data

How the results depend on the processing

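No member was called by genotype under any of 15 alternatives, or between plates or for the interaction under any of 9 each. The count of 2 members called by sex was 1 with array medians subtracted, 1 in WT mice alone, 0 in HET mice alone and 0 in each of plates 1, 2 and 3 alone, which hold fewer mice, and it stayed at 2 under the other 9. Sprr2d kept its sign under all 15 (0.36 to 0.53) and was called under 11, and Lce1h kept its sign under all 15 (-0.11 to -0.03) and was called under 9. The genotype differences of Lce1c, Lce3f and Lce6a turned sign on plate 1, and that of Crnn with cell marker covariates, all uncalled. That of Lce3f was -1.17 on plate 2 alone, also uncalled. The median r of member pairs, 0.0595, was 0.1055 with array medians subtracted, 0.08555 on plate 1, 0.07222 on plate 2, 0.07844 in WT mice, 0.0916 over members above the median level and 0.07436 without members under the lower quartile, the last chosen after seeing the data. The cause was not tested. Under the other 7 alternatives it moved by less than 0.0104, the SD over plates. No paired analysis was possible because the labels used here do not pair HET with WT mice. Signals near the array's background or its upper end limit what can be seen for Lce3b, Sprr2f, Sprr2k, Sprr3, S100a5, Lce1d and Lce1h. Mice are separate animals, but litters are not in the labels used here.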
